A study of Homo sapiens with 3 samples.

Results

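The 10 transcripts described here encode the main protein folding helpers of the endoplasmic reticulum (ER) and of the mitochondrial matrix, and they were taken by their RefSeq identifiers from the 25443 transcripts that had a value in at least 1 of the 3 samples. They are 7 ER chaperones and folding enzymes, HSPA5 (NM_005347), HSP90B1 (NM_003299), CALR (NM_004343), CANX (NM_001746), PDIA3 (NM_005313), PDIA4 (NM_004911) and P4HB (NM_000918), and 3 mitochondrial chaperones, HSPD1 (NM_002156), HSPE1 (NM_002157) and HSPA9 (NM_004134). The cells were of the human embryonic kidney line HEK 293 by the sample labels, called HEK293T in the paper, a line that carries adenoviral DNA and, in the T variant, the SV40 large T antigen. The negative control was kept in normal medium, the DMSO sample in medium with 1 mM of the solvent dimethyl sulfoxide, and the BDE-209 sample in medium with 1 µM of the flame retardant decabromodiphenyl ether dissolved in 1 mM DMSO, each for 48 h and all in the same base medium with serum. Each condition had 1 sample, so no difference below has a replicate check, and none is given a p-value. In bulk RNA from a culture, fewer cells with a transcript and less of it per cell cannot be told apart.

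Proteins that enter the ER fold with the help of an HSP70 chaperone (HSPA5, also called BiP or GRP78), an HSP90 chaperone (HSP90B1, also called GRP94), the lectins calnexin (CANX) and calreticulin (CALR), which hold sugar-bearing chains, and the protein disulfide isomerases (P4HB, PDIA3, PDIA4), which make and rearrange disulfide bonds. When unfolded chains build up in the ER, the sensors IRE1, PERK and ATF6 start the unfolded protein response. Transcription of several of these genes then rises through the ER stress response element in their promoters. In the mitochondrial matrix, HSPA9 (mortalin) pulls imported chains inward and folds them, and HSPD1 (HSP60) forms the chaperonin barrel that is capped by HSPE1 (HSP10).

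The ER stress response element is shown because it is the sequence through which several of the ER genes are known to respond together. Since it was chosen for this known role, its presence in these genes is not a new result, and the counts below carry no test. Promoter windows from 250 bases before to 50 bases after the start of a gene, from RefSeq on GRCh38.p14, were at hand for 9 of the 10 genes, and PDIA3 had none. The full element, CCAAT, any 9 bases and CCACG, searched on both strands, occurred in the windows of 4 of these 9 genes, HSPA5, HSP90B1, CALR and CANX, and in 0.0916% of all 27305 genes with a window. The matches follow, read in the direction of the element, with its fixed letters in capitals and the spacer in lower case.
HSPA5, chr9:125241391-125241409: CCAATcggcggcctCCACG
HSP90B1, chr12:103930216-103930234: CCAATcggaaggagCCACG
HSP90B1, chr12:103930321-103930339: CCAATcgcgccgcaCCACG
CALR, chr19:12938384-12938402: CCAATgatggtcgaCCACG
CANX, chr5:179698778-179698796: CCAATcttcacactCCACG
The first HSP90B1 match and those of HSPA5 and CANX lie on the strand of the gene, and the second HSP90B1 match and that of CALR on the opposite strand. The CCAAT box by itself, CCAAT on either strand, was found in 6 of the 9 genes, the 4 above with PDIA4 and P4HB, against 39.7% of all genes, and every full element holds one. All 6 encode ER proteins, and none of the 3 mitochondrial genes had one in these windows. Of the related sites, also searched on both strands, the shorter ER stress element (ATTGG, any base and CCACG) was found in none of the 9 and in 0.0696% of all genes, and the site TGACGTGG of XBP1 and ATF6 in none of the 9 and in 0.927%. The TATA box, TATAAA, was found in CALR and P4HB and in 3819 of the 27305 genes. Only these exact letters were counted, so a near match such as tataag in the HSPA5 promoter below was not.

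The HSPA5 promoter is given in full as the one whose transcript differed most between the samples below. Its 250 bases before the start, chr9:125241344-125241593 on the minus strand of GRCh38.p14, hold 1 full element, in capitals at its fixed letters, whose last base lies 48 bases before the start.
HSPA5 promoter: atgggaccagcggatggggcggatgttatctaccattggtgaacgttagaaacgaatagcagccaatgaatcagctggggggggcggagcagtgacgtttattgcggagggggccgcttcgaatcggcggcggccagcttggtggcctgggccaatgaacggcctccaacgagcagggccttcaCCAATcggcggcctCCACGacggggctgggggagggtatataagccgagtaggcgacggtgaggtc
The 2 chaperonin genes start on opposite strands from 1 shared stretch. HSPD1 starts at base 197500274 of chromosome 2 on the minus strand and HSPE1 at base 197500379 on the plus strand, and the 104 bases between them, chr2:197500275-197500378 on the plus strand of GRCh38.p14, are given because they precede both starts.
HSPD1 and HSPE1, shared stretch: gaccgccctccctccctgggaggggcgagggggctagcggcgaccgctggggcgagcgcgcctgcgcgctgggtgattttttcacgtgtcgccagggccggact
Neither the ER stress response element nor the heat shock element (GAA, any 2 bases, TTC, any 2 bases and GAA), the site of heat shock factors, matched within these 104 bases. A heat shock element matched in the window of a second HSPD1 start, where 2 matches on opposite strands overlap, and in 0.608% of all genes. Both matches lie past the first HSPD1 start and outside the window of HSPE1, which begins 250 bases before the HSPE1 start. The matches are read in the direction of the element, with its fixed letters in capitals.
HSPD1 second start, chr2:197500068-197500080: GAAagTTCtgGAA
HSPD1 second start, chr2:197500073-197500085: GAActTTCcaGAA
A match describes letters in a window and does not show that a factor was bound in these cells.

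The values are RPKM, reads divided by the length of the transcript and by a read total of the library, which the authors computed for each RefSeq transcript. The files hold no read counts, but their values move in steps of 1 read, from which the read total that each RPKM was divided by was recovered, as 4843624 for the negative control, 4782043 for DMSO and 4676793 for BDE-209. These totals are smaller than the numbers of mapped and of uniquely mapped reads that the paper lists, and which reads were left out is not given in the sources used here. The reads behind each transcript follow from the same steps and, for the 10 chaperones, ran from 638 to 7965. Intervals below are 95% intervals of these counts (exact Poisson for a level, Clopper-Pearson for a ratio), and they cover counting error only, not differences between cultures. All 10 transcripts had a mean RPKM over 100, so that none was lost to a minimum on low values. Of 6 genes known from HEK293 cells, VIM, NEFM, NEFL and INA lay between 24.4 and 299.1 RPKM, LHX1 at 1.433 or lower, and PAX2 had no row. Of 9 markers of liver, blood, fibroblasts and proximal tubule, 4 had no row and the other 5 lay at 5.186 RPKM (COL1A1, in DMSO) or lower.

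HSPD1 had the highest level of the 10 transcripts and PDIA4 the lowest, in every sample. The HSPD1 transcript, on chromosome 2 (GRCh37, 198351308 to 198381461), measured 583.888 RPKM in the negative control, 563.244 in DMSO and 564.493 in BDE-209. It was followed in each sample by CALR, HSP90B1, CANX, HSPA9 and P4HB, in this order. Between each of these neighbours the counting intervals of the levels were apart, with CANX and HSP90B1 the closest pair, at a ratio of 1.08 to 1.11. PDIA3, HSPE1 and HSPA5 came next, and the intervals of neighbours among these 3 overlapped in all samples. The interval of PDIA3 lay above that of HSPA5 in DMSO (142.1 to 154.6 against 126.5 to 136.9 RPKM) and in BDE-209 (144.1 to 156.9 against 132.9 to 143.6), and overlapped it in the negative control. HSPA5 stood before HSPE1 in the negative control, at 148.308 against 148.264 RPKM, and after it in the other samples. Taken as reads, and set against the recovered totals and not the larger mapped totals, the 10 transcripts held 0.7862% in the negative control, 0.7499% in DMSO and 0.7633% in BDE-209.

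**Figure D1:**
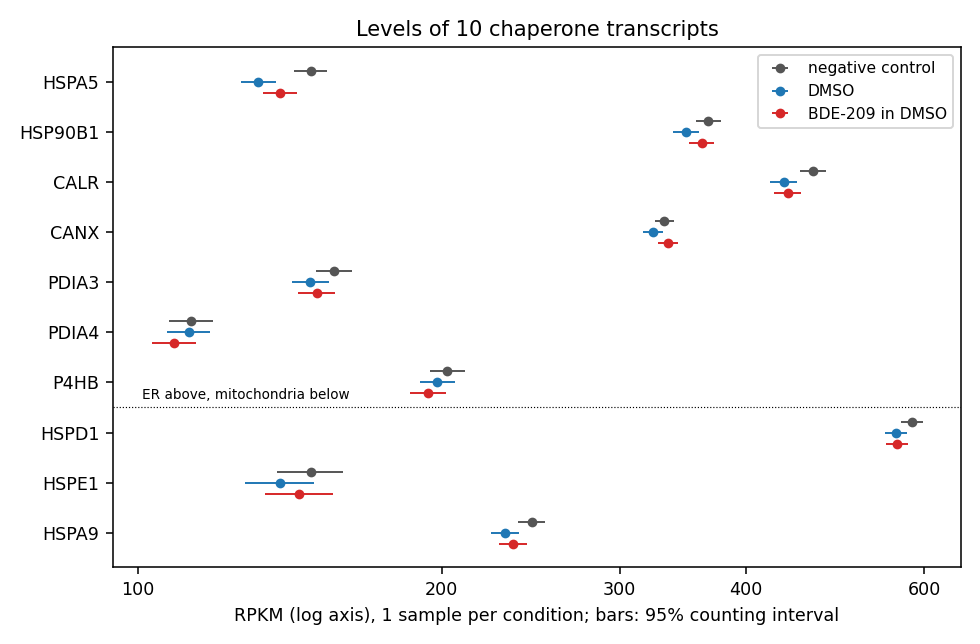
Level of each chaperone transcript in RPKM (log axis) in the negative control (grey), DMSO (blue) and BDE-209 in DMSO (red), 1 sample each, with 95% Poisson counting intervals as bars. The levels span 108.639 (PDIA4, BDE-209) to 583.888 (HSPD1, negative control), and HSPA5, from 131.638 to 148.308, differs most of the 10 between DMSO and the negative control.

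Levels of different genes are also set by how much of a transcript the aligned reads could reach. The authors kept only reads with 1 place in the genome, so every 49-base window of the GENCODE canonical transcript of each gene was looked up in GRCh37. For HSPD1, 47.2% of the windows matched the genome exactly once, 38.6% more than once and 14.2% not at all. HSPE1 was alike, with 51.9% matching once and 33.6% more than once, while the other 8 genes had between 70.8% (HSP90B1) and 86.9% (CANX) matching once. GENCODE names 18 pseudogenes after HSPD1 and 26 after HSPE1, against at most 2 for any of the others (PDIA3). Windows with no match were most frequent in HSP90B1, at 25.5%. Its transcript has 18 exons, the most of the 10, and a window across a junction of exons has no match at the gene itself. Such a window can still match a spliced copy elsewhere. Whether a single match lay at the gene or in a copy was not looked up, so the single-match shares may count some matches in copies. If the levels are divided by the share of single-match windows, a setting chosen after seeing the data, HSPD1 stands at 1238 in the negative control, and HSPE1, at 285.9, moves to the sixth place in each sample, ahead of P4HB. A further uncertainty is that the recovered lengths differ from those of the canonical transcripts. They are 965 against 557 bases for HSPE1, 3060 against 3680 for PDIA3 and 3506 against 4404 for HSPA9. The shares are the same in every sample, so they do not enter the ratios between samples, and their part in the levels was not tested.

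**Figure D2:**
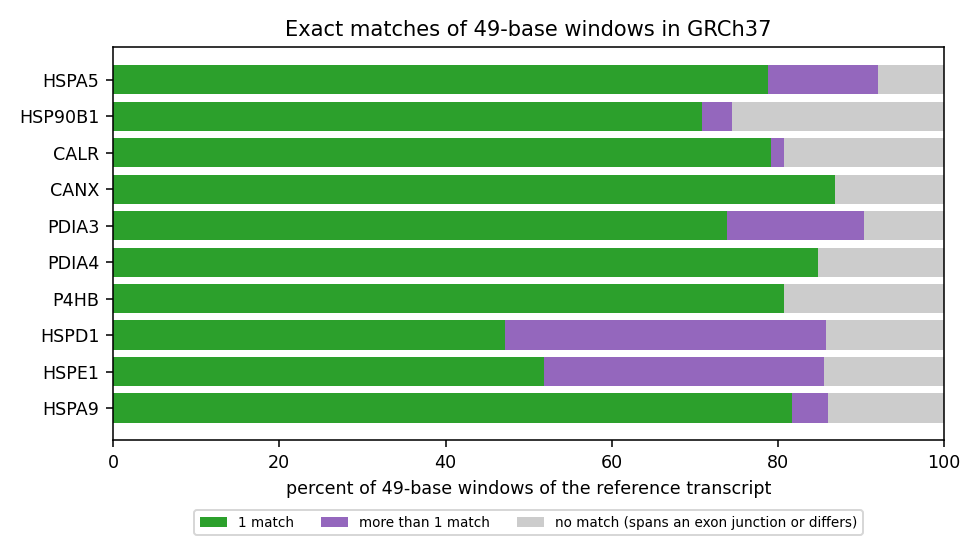
Percent of 49-base windows of each reference transcript with 1 exact match in GRCh37 (green), more than 1 (purple) or none (grey). HSPD1 (47.2%) and HSPE1 (51.9%) have the smallest single-match shares, and the other 8 genes lie between 70.8% and 86.9%.

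The comparison of DMSO with the negative control asks what the solvent alone did to these transcripts. All 10 were lower in the DMSO sample, with differences from -0.52% (PDIA4) to -11.2% (HSPA5) and a median log2 ratio of -0.075. Over the 7702 coding transcripts with a mean RPKM of at least 10, the median log2 ratio was 0.005 and 48.2% were below 0, and over the 764 with a mean of at least 100 the median was -0.008 and 54.7% were below 0. None of the 10 reached a 1.2-fold difference, where 3.36% of the coding transcripts over 10 RPKM were lower and 3.88% higher by that much, and 0.654% and 0.393% of those over 100. The 2-fold change used in the study was reached by 0 of the 10 and by 0 of the 7702 (0.00%). The study, which joined this fold with a NOISeq threshold and states no minimum level, did report differentially expressed genes in each comparison. For 5 of the 10, HSPA5, CALR, HSP90B1, HSPA9 and HSPD1, the counting interval lay below 0, against 4.89% of the coding transcripts over 10 RPKM and 11.0% of those over 100, and for none did it lie above 0, against 6.52% and 11.6%. With upper quartile scaling, which shifts this comparison by -0.010, 7 of the 10 intervals lay below 0. The 10 come from the same libraries and were chosen as a group, so these counts describe the libraries and carry no test.

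HSPA5, the HSP70 of the ER and the most used marker of the unfolded protein response, lies on chromosome 9 (GRCh37, 127997132 to 128003661). It measured 148.308 RPKM in the negative control, 131.638 in DMSO and 138.153 in BDE-209, from 2854, 2501 and 2567 reads. The negative control was the highest and DMSO the lowest, with BDE-209 between them. The log2 ratio of DMSO to the negative control was -0.17 (interval -0.25 to -0.094), the largest of the 10, and 9.11% of the coding transcripts over 10 RPKM had a lower ratio. Over the 764 coding transcripts of at least 100 RPKM, the level class of HSPA5, the fifth percentile was -0.15, so that HSPA5 lay below it.

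HSP90B1, the HSP90 of the ER, on chromosome 12 (104323885 to 104347709), had 367.092 RPKM in the negative control, 348.802 in DMSO and 361.651 in BDE-209. The order was as for HSPA5, with a log2 ratio of DMSO to the negative control of -0.074 (interval -0.13 to -0.016). HSP90B1 exceeded HSPA5 by 2.475-fold in RPKM in the negative control, 2.65-fold in DMSO and 2.618-fold in BDE-209. CALR, the soluble lectin, on chromosome 19 (13049392 to 13055303), had 465.786, 435.901 and 439.837 RPKM in the same order of samples. Here both treated samples lay below the negative control and near each other, and the log2 ratio of DMSO to the negative control was -0.096 (interval -0.16 to -0.033). CANX, the membrane-bound lectin, on chromosome 5 (179105629 to 179158642), had 332.007, 323.743 and 335 RPKM. It was the single transcript of the 10 whose highest value was in the BDE-209 sample, and its log2 ratio of DMSO to the negative control, -0.036, had an interval that included 0 (-0.082 to 0.009). A second CANX isoform, NM_001024649, gave nearly the same values (334.671, 326.178 and 337.751 RPKM, from 7943, 7643 and 7740 reads against 7965, 7668 and 7760), so the rows of both isoforms hold mostly the same reads.

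For each disulfide isomerase the counting interval of DMSO against the negative control included 0. P4HB, the first described member of the family and also a subunit of collagen prolyl hydroxylase, on chromosome 17 (79801035 to 79818732), had 202.56 RPKM in the negative control, 197.919 in DMSO and 193.889 in BDE-209. PDIA3, which works with the lectins on sugar-bearing chains, on chromosome 15 (44038592 to 44065477), had 156.327, 148.226 and 150.374 RPKM. PDIA4, on chromosome 7 (148700154 to 148725754), had 112.96, 112.373 and 108.639 RPKM. All 3 were highest in the negative control, and P4HB and PDIA4 were lowest in BDE-209. The log2 ratios of DMSO to the negative control were -0.033 for P4HB (interval -0.11 to 0.047), -0.077 for PDIA3 (-0.16 to 0.008) and -0.008 for PDIA4 (-0.11 to 0.093). Equal levels are not shown by this, since the interval of PDIA3 reached -0.16.

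Among the mitochondrial chaperones, HSPA9, on chromosome 5 (137889445 to 137911364), had 245.499 RPKM in the negative control, 231.125 in DMSO and 235.289 in BDE-209, and its log2 ratio of DMSO to the negative control was -0.087 (interval -0.15 to -0.024). HSPD1, with the values given above, had a log2 ratio of -0.052 (interval -0.10 to -0.002), which ends close to 0. HSPE1, on chromosome 2 (198364864 to 198368173), had 148.264, 138.255 and 144.468 RPKM from 693, 638 and 652 reads, the fewest of the 10. Its log2 ratio of -0.10 was the second largest in size, but with these reads the interval ran from -0.26 to 0.056 and included 0. All 3 were highest in the negative control and lowest in DMSO. The RPKM of HSPD1 was 3.938 times that of HSPE1 in the negative control, 4.074 times in DMSO and 3.907 times in BDE-209. In the same order of samples, the ratio of P4HB to PDIA4 varied less for its size (1.793, 1.761 and 1.785). That of CALR to CANX varied more (1.403, 1.346 and 1.313). No counting interval was computed for these ratios between transcripts, so whether their spreads differ beyond counting error was not tested. The second HSPD1 isoform, NM_199440, had 6548, 6239 and 6122 reads against 6615, 6300 and 6175, and again holds mostly the same reads.

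**Figure D3:**
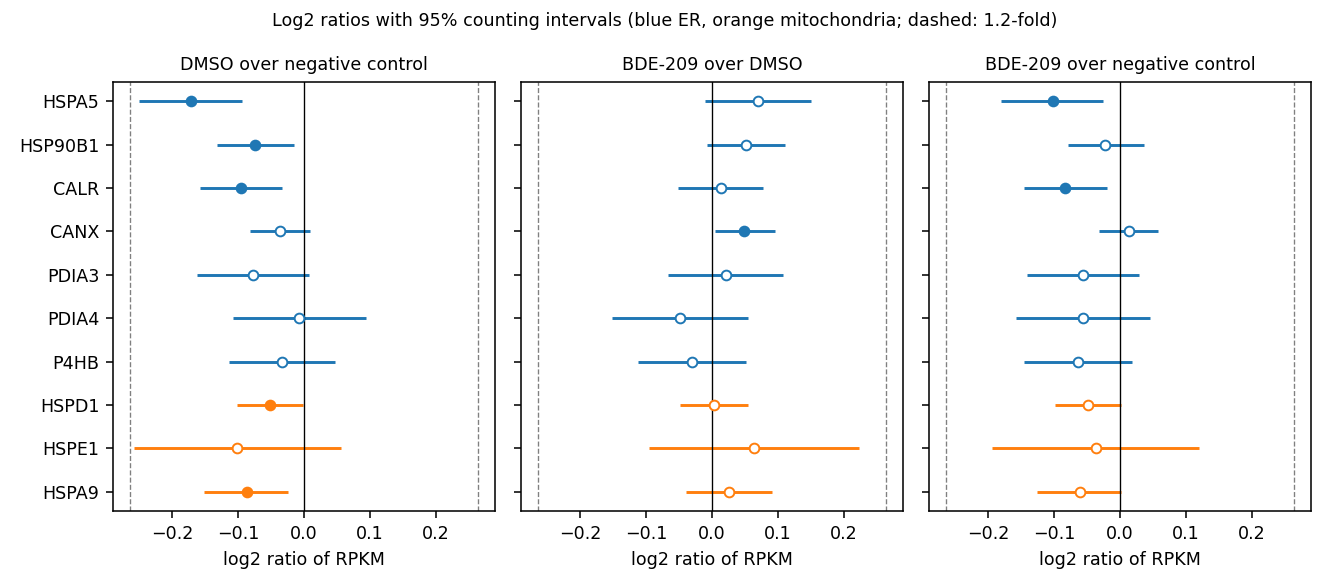
Log2 ratio of RPKM for each transcript in the 3 comparisons, with 95% Clopper-Pearson counting intervals (blue ER, orange mitochondria, filled where the interval excludes 0, dashed lines at 1.2-fold). All 10 ratios of DMSO to the negative control are below 0 and 5 intervals exclude 0, 1 interval (CANX) excludes 0 for BDE-209 against DMSO, and no point reaches 1.2-fold.

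The comparison of BDE-209 with DMSO, in which both samples hold the solvent, addresses BDE-209 itself. The 10 transcripts differed by 4.95% or less, between a log2 ratio of -0.049 for PDIA4 and 0.070 for HSPA5, with a median of 0.023 against -0.005 for the coding transcripts over 10 RPKM and -0.015 for those over 100. Of the 10, 2 were lower in BDE-209, the isomerases PDIA4 and P4HB, where 52.1% of the coding transcripts over 10 RPKM and 58.1% of those over 100 were lower. This comparison uses the same DMSO sample in which all 10 were below the negative control. A low value in that sample lowers the first ratio and raises this one, so this count is not independent of the one for the solvent. No transcript of the 10 reached 1.2-fold, against 2.12% of coding transcripts over 10 RPKM higher and 3.14% lower, and 0.262% and 0.131% of those over 100, and 0 reached 2-fold (0.00% of the coding transcripts). The counting interval excluded 0 for CANX alone, at a log2 ratio of 0.049 (interval 0.004 to 0.095), where it lay above 0 for 3.31% of the coding transcripts over 10 RPKM and 3.93% of those over 100. It lay below 0 for none of the 10 and for 3.79% of the coding transcripts over 10 RPKM and 9.69% of those over 100.

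For HSPA5 the ratio of BDE-209 to DMSO was 0.070 with an interval from -0.010 to 0.15, and for HSP90B1 it was 0.052 with an interval from -0.007 to 0.11. Both intervals included 0. HSPD1 differed least, by 0.003 (interval -0.048 to 0.054), while HSPE1, at 0.063, had the widest interval (-0.096 to 0.22). The remaining ratios were 0.013 for CALR, 0.021 for PDIA3, 0.026 for HSPA9, -0.030 for P4HB and -0.049 for PDIA4, all with intervals that included 0.

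**Figure D4:**
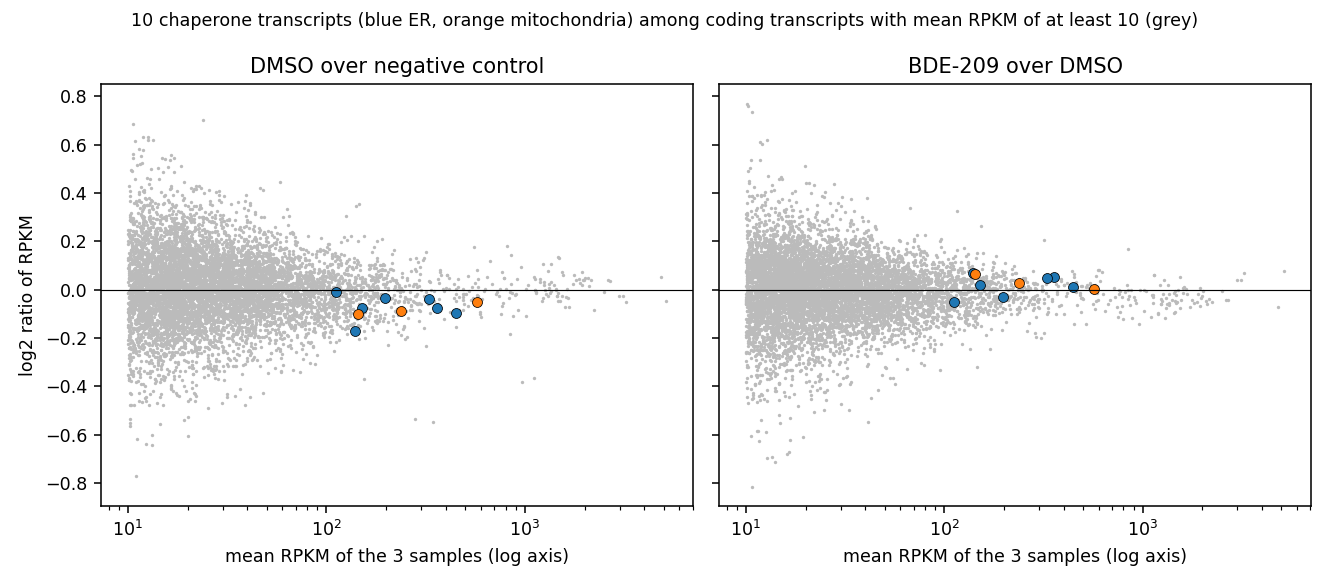
Log2 ratio against mean RPKM (log axis) of the 7702 coding transcripts with a mean of at least 10 (grey) and of the 10 chaperone transcripts (blue ER, orange mitochondria), for DMSO over the negative control (left) and BDE-209 over DMSO (right). The chaperones lie from -0.17 to -0.008 on the left and from -0.049 to 0.070 on the right, within the cloud of transcripts of like level.

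BDE-209 in DMSO against the negative control holds the solvent and the compound together, and it shares a sample with each of the comparisons above. In it, 9 of the 10 transcripts were lower and CANX was higher by 0.901%. The median log2 ratio was -0.056, against 0.001 for the coding transcripts over 10 RPKM, of which 49.9% were below 0, and -0.026 for those over 100, of which 63.9% were below 0. The counting interval lay below 0 for HSPA5 (-0.10, interval -0.18 to -0.025) and CALR (-0.083, interval -0.15 to -0.020), against 5.95% of the coding transcripts over 10 RPKM and 17.1% of those over 100. It lay above 0 for none of the 10, against 6.35% and 9.16%. HSPA9 (-0.061, interval -0.13 to 0.002) and HSPD1 (-0.049, interval -0.099 to 0.002) ended just past 0. When the samples were scaled by the median ratio or the upper quartile of coding transcripts in place of the recovered totals, which shifts this comparison by -0.006 and -0.008, 4 of the 10 intervals lay below 0. None of the 10 reached 1.2-fold, where 4.27% of the coding transcripts over 10 RPKM were lower and 3.69% higher, with 1.18% and 0.393% of those over 100, and 0 reached 2-fold (0.00% of the coding transcripts).

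Beside the chaperones, 70 other genes of protein folding were read in 8 lists, each gene by its isoform with the highest mean RPKM. All 70 had a row, and 55 had a mean of at least 10 RPKM. Between DMSO and the negative control, 2 of the 55 (3.64%) were higher and 1 (1.82%) lower by 1.2-fold or more, where the coding transcripts over 10 RPKM had 3.88% and 3.36%, and 22 of the 55 had a ratio below 0, where 48.2% of the coding transcripts had one. The counting interval lay above 0 for 3 of the 55 (5.45%, where the coding transcripts had 6.52%) and below 0 for 2 (3.64%, where they had 4.89%). Between BDE-209 and DMSO, 1 (1.82%, against 2.12% of the coding transcripts) was higher and 2 (3.64%, against 3.14%) were lower by 1.2-fold. The interval lay above 0 for 0 (against 3.31%) and below 0 for 2 (3.64%, against 3.79%), and 33 of 55 ratios were below 0, against 52.1% of the coding transcripts. Between BDE-209 and the negative control, 1 (1.82%, against 3.69%) was higher and 3 (5.45%, against 4.27%) were lower by 1.2-fold, and the interval lay above 0 for 2 (3.64%, against 6.35%) and below 0 for 3 (5.45%, against 5.95%).

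The 8 co-chaperones of HSPA5 with a mean RPKM of at least 10 had a median log2 ratio of 0.062 between DMSO and the negative control, and 2 of them were below 0. HYOU1, an exchange factor and HSP70-like chaperone of the ER, had 72.02, 74.99 and 70.5 RPKM in the negative control, DMSO and BDE-209. DNAJB11, the HSP40 partner of HSPA5, had 46.01, 46.48 and 46.41. Between BDE-209 and DMSO, SDF2L1 had the largest ratio among them, -0.33, with an interval from -0.85 to 0.18 on 59 and 76 reads, and between BDE-209 and the negative control it had -0.39 (interval -0.90 to 0.12). DNAJC1 (0.14) and SEC63 (0.085) had the largest ratios of DMSO to the negative control, with intervals that included 0, and DNAJC1 had -0.20 (interval -0.49 to 0.085) between BDE-209 and DMSO.

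The 10 genes of the disulfide isomerase and oxidoreductase list with a mean RPKM of at least 10 had a median of -0.008 between DMSO and the negative control. MANF, a secreted ER stress protein that binds HSPA5, had 89.27 RPKM in the negative control, 74.24 in DMSO and 71.94 in BDE-209. Its log2 ratio was -0.27 between DMSO and the negative control (interval -0.48 to -0.057) and -0.31 between BDE-209 and the negative control (interval -0.53 to -0.099). PDIA5 had the largest difference in the other direction, 0.31 between DMSO and the negative control, with an interval that included 0 (-0.055 to 0.67). CRELD2, an ER stress-inducible protein, had the largest ratio of BDE-209 to DMSO in this list, 0.20, with an interval from -0.34 to 0.73, and TXNDC11 followed at -0.16 (interval -0.44 to 0.12).

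In the list of glycoprotein folding, UGGT1, the enzyme that returns unfolded chains to the lectins CALR and CANX, had 26.62 RPKM in the negative control, 23.1 in DMSO and 22.96 in BDE-209. The log2 ratio of DMSO to the negative control was -0.21 (interval -0.32 to -0.093). It lay on the same side as CALR and CANX, while the list's median, over 7 genes with a mean RPKM of at least 10, was -0.025. CLGN, a relative of calnexin, had the largest ratio of BDE-209 to DMSO, 0.22 (interval -0.060 to 0.50). LMAN1, a cargo receptor for glycoproteins, had 0.10 between DMSO and the negative control, and PRKCSH, a subunit of glucosidase II, 0.051 between BDE-209 and DMSO, with intervals that included 0.

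Of the sensors and factors of the unfolded protein response, 5 of 9 had a mean of at least 10 RPKM, with a median of 0.086 between DMSO and the negative control and -0.003 between BDE-209 and DMSO. ATF6B, a relative of the sensor ATF6, had 24.57 RPKM in the negative control, 30.23 in DMSO and 24.38 in BDE-209. DMSO alone was high, with log2 ratios of 0.30 against the negative control (interval 0.079 to 0.52) and -0.31 for BDE-209 against DMSO (interval -0.53 to -0.087). XBP1, the factor whose RNA is spliced by IRE1, had 86.78, 88.24 and 79.3 RPKM, and the ratio of BDE-209 to DMSO was -0.15 (interval -0.31 to -0.003). MBTPS1, the protease that releases ATF6, had a ratio of 0.087 between DMSO and the negative control (interval -0.054 to 0.23). The sensors ERN1 (IRE1) and EIF2AK3 (PERK) lay under a mean of 10, with 1.753, 2.663 and 3.363 RPKM for ERN1 and 6.284, 5.738 and 7.288 for EIF2AK3 in the negative control, DMSO and BDE-209. ERN1 rested on 34, 51 and 63 reads and had the largest log2 ratio of BDE-209 to the negative control among the 9 genes, 0.94 (interval 0.32 to 1.59). Its ratios of DMSO to the negative control, 0.60 (interval -0.051 to 1.27), and of BDE-209 to DMSO, 0.34 (interval -0.22 to 0.90), had intervals that included 0. EIF2AK3, on 142, 128 and 159 reads, had 0.21 (interval -0.12 to 0.55) between BDE-209 and the negative control and 0.35 between BDE-209 and DMSO, where the interval began at 0.000 and ended at 0.69. DDIT3 and HERPUD1, also under a mean of 10, had at most 22 reads in a sample and intervals that included 0 in each comparison. DDIT3 had rows for 3 isoforms and HERPUD1 for 2, each gene being read by 1 of them. How the authors counted reads common to isoforms is not given, so these low values need not mean low expression, and this was not tested. The RPKM values do not separate spliced from unspliced XBP1 RNA.

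Of the genes of ER-associated degradation, which takes misfolded chains out to the proteasome, 7 had a mean RPKM of at least 10. Their median was 0.075 between DMSO and the negative control. SEL1L, the scaffold of the HRD1 ligase, had a ratio of 0.19 (interval 0.003 to 0.37) and SYVN1, the ligase itself, 0.21 (interval -0.008 to 0.42). EDEM1 (0.23) and DERL2 (-0.23) differed most between BDE-209 and DMSO, both with intervals that included 0.

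Among mitochondrial partners with a mean RPKM of at least 10, the 5 co-chaperones had a median of -0.046, 6 proteases 0.083 and 7 import subunits 0.024 in the same comparison. TRAP1, the HSP90 of mitochondria, had 167.1, 161.9 and 166.2 RPKM in the negative control, DMSO and BDE-209. LONP1, the main matrix protease, had 44.66, 47.72 and 44.13 RPKM. These 2 differed little between the samples next to their counting intervals, all of which included 0. TOMM20, a receptor of the outer membrane import pore, had 183.9, 194.4 and 190 RPKM, and its ratio of DMSO to the negative control was 0.080 (interval 0.008 to 0.15). The other genes of these 3 lists with the largest ratios had intervals that included 0 in the comparison for which they were chosen. Between DMSO and the negative control they were GRPEL2 (0.14), HSCB (-0.097), SPG7 (0.14), CLPP (0.13) and TIMM23 (-0.10), and between BDE-209 and DMSO they were HSCB (0.37), GRPEL1 (-0.14), CLPP (-0.18), TIMM23 (-0.14) and PMPCA (-0.11). Between BDE-209 and the negative control the interval excluded 0 for GRPEL2, at 0.21 (0.036 to 0.39), and TIMM23, at -0.24 (-0.42 to -0.054).

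**Figure D5:**
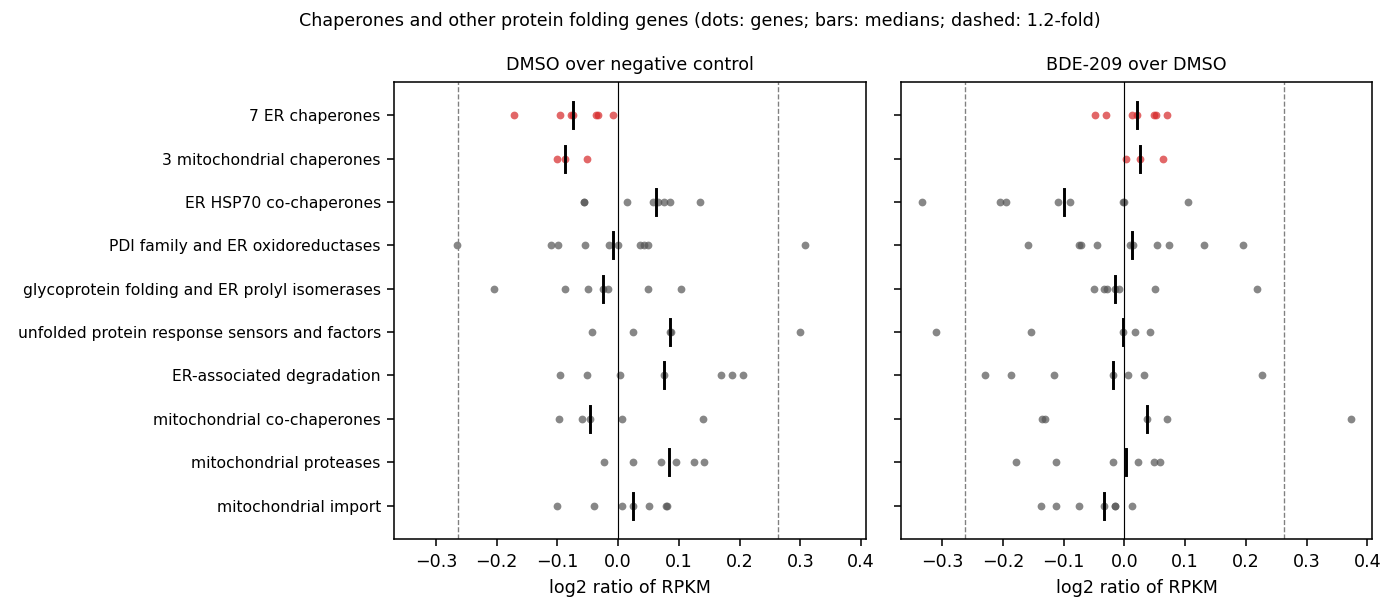
Log2 ratios of the 7 ER and 3 mitochondrial chaperones (red) and of the genes of 8 other protein folding lists with a mean RPKM of at least 10 (grey), with medians as bars and dashed lines at 1.2-fold. For DMSO over the negative control (left) the medians are -0.074 for the ER and -0.087 for the mitochondrial chaperones and run from -0.046 to 0.086 for the lists.

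Read along the promoter elements, the 4 genes with a full ER stress response element had log2 ratios of DMSO to the negative control of -0.17 (HSPA5), -0.096 (CALR), -0.074 (HSP90B1) and -0.036 (CANX), and the 2 ER genes with a window and no full element had -0.033 (P4HB) and -0.008 (PDIA4). The 3 mitochondrial genes, without the element, had -0.087 (HSPA9), -0.052 (HSPD1) and -0.10 (HSPE1). The intervals of CANX, P4HB, PDIA4 and HSPE1 included 0, and a link between the element and these ratios was not tested. The other genes with a full element in their window, a list chosen after seeing the data, numbered 21, of which 7 had a mean RPKM of at least 10, among them PDIA6, XBP1, SERP1 and CRELD2. Their median log2 ratio in this comparison was -0.046, with 4 of 7 below 0. Those below 0 were ALG12 (-0.135), PDIA6 (-0.110), CRELD2 (-0.054) and SERP1 (-0.046). Those above 0 were EIF2A (0.133), ERO1B (0.042) and XBP1 (0.024). PDIA6, a further disulfide isomerase, had 113.4 RPKM in the negative control, 105.1 in DMSO and 115.1 in BDE-209. Its intervals included 0 for DMSO against the negative control (-0.27 to 0.053) and for BDE-209 against DMSO (-0.033 to 0.30). Between BDE-209 and DMSO, the median over the 7 was 0.009 and 2 of 7 were below 0.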

How the data were processed

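RNA of 3 samples of HEK293 cells, 1 each of negative control, DMSO and BDE-209 in DMSO, was compared pairwise, with groups from the sample labels. Per the paper, single-end sequencing gave 49-base reads. SOAPaligner 2.21 placed them on hg19 with no more than 2 mismatches, and those with 1 genomic position entered the RPKM that the authors deposited for RefSeq transcripts. How reads common to isoforms were treated is not given in the sources used here. Absent transcripts were set to 0. The authors' NOISeq probability was not computed, since it rests on simulated replicates, and their 2-fold threshold was kept beside a 1.2-fold one.

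The read total behind the RPKM of each sample was recovered as the total at which the inverse of RPKM values under 0.12 is a whole length (mean cosine 0.774, 0.745 and 0.756, next best total at most 0.076), and reads as the smallest whole numbers that give all 3 RPKM values, which are lower bounds, since larger numbers also fitted for HSPA5 and CANX. Log2 ratios had no pseudocount. Intervals are at 95%. Symbols came from RefSeq (24434 of 25443 rows matched), gene positions from GENCODE 44 on GRCh37, which is the hg19 of the authors, and promoters from RefSeq on GRCh38.p14. All 10 members are named. Of each of the 8 lists, the rule allowed the 2 genes with the largest difference in BDE-209 against DMSO and in DMSO against the negative control. HYOU1, DNAJB11, TRAP1, PDIA6, SERP1, ALG12, EIF2A, ERO1B, ERN1, EIF2AK3, DDIT3 and HERPUD1 were added after their values were seen. The members and lists were chosen with earlier results of these data known. Computation used Python 3.11.15 (scipy 1.17.1 for intervals, numba 0.67.0 for the window search) and was tested on simulated data. Alternatives were other scalings, pseudocounts, minimum levels, isoform sums and transcript lengths.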

Additional observations from a re-analysis of the deposited data

How the results depend on the processing

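Of 120 log2 ratios of the chaperones recomputed under median-of-ratios scaling, upper quartile scaling, and 0.5 or 1 RPKM added to both values, 0 changed sign where the interval had excluded 0, and the largest shift was 0.010. Little movement was possible here. A scaling shifts all ratios of a comparison by the same small amount, and 0.5 or 1 RPKM is small next to levels over 100. For BDE-209 against the negative control, 4 in place of 2 intervals lay below 0 under either scaling. For DMSO against the negative control it was 7 in place of 5 under upper quartile scaling and 5 under median-of-ratios scaling. The percent of coding transcripts past 1.2-fold in either direction depended on the minimum level. For DMSO against the negative control it was 22.2% at a mean RPKM of at least 1, 42.4% with no minimum and 1.05% at a mean of at least 100. For BDE-209 against DMSO it was 20.4%, 41.2% and 0.393%, and for BDE-209 against the negative control 22.7%, 43.3% and 1.57%. Fewer reads lie behind transcripts of low RPKM. With the length of the GENCODE canonical transcript in place of the recovered one, the reads of HSPE1 came to 400, 368.26 and 376.34 in the negative control, DMSO and BDE-209. The reads of PDIA3, PDIA4, P4HB, HSPD1 and HSPA9 also left the counting intervals of the recovered ones. In the negative control, those of HSPA9 came to 5236.8 in place of 4169, and those of P4HB to 2391 in place of 2547. The log2 ratios do not depend on this length, but the widths of their intervals do. No paired analysis was possible because each group holds 1 sample, and leaving out a replicate was not possible for the same reason. Depth limits the comparison most for HSPE1.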
